A study of Mus musculus with 72 samples.

Results

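Grem1 encodes gremlin 1, a secreted antagonist of bone morphogenetic proteins (BMPs). Its transcript is described here across 36 tumours as 1 of the 1224 different genes on a pair of targeted RNA panels. The gene was selected on measured values, namely its levels in the 4 treatment groups and how it varied between mice, so its own levels, fold changes and correlations are given as a description with no test. The tumours grew from 4T1, a single line of mouse mammary carcinoma cells that came from a BALB/c mouse. Cells were injected into the thigh muscle on day -6, treatment was given on day 0 and tumours were collected on day 6. All hosts were female BALB/c mice aged 6 to 12 weeks with no engineered allele named in the labels, and each group had 9 of them. Control mice received 400 µg of an isotype antibody. Mice of the BA group received 492 µg of bintrafusp alfa, labelled M7824, which joins an antibody against PD-L1 to a TGF-β-binding part of a TGF-β receptor. Mice of the RT group were irradiated and received the isotype antibody, and BA+RT mice had both bintrafusp alfa and radiation. The dose and schedule of the radiation are not given in the sources used. The labels describe the tissue as orthotopic, although a thigh is named as the site of injection.

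BMPs are ligands of the TGF-β superfamily that bind type I and type II serine/threonine kinase receptors, through which Smad1, Smad5 and their relatives are phosphorylated and, with Smad4, drive target genes such as the Id family. Gremlin 1 binds BMP ligands outside the cell and keeps them from their receptors. In tumours and in the intestine it is known mainly as a product of fibroblasts and other stromal cells. Each library here holds RNA of a whole tumour, so fewer cells of a type and less RNA per cell cannot be told apart.

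The panel read Grem1 (ENSMUSG00000074934) through 1 amplicon, so every Grem1 value below is a count of this one stretch. On the mouse build GRCm38 the amplicon lies on chromosome 2, within the coding part of exon 2 of 2, and 0 other genes of the GENCODE annotation held the same stretch.

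Grem1 was highest after radiation alone, and bintrafusp alfa went with a lower level in both unirradiated and irradiated tumours. Levels are in CPM, the counts set relative to a common library size after TMM scaling, which also corrects for the makeup of the panel. In control tumours Grem1 ranged from 202 to 843 CPM with a median of 328 (mean 397 ± 200, SD, n = 9). With BA it ranged from 147 to 337 CPM with a median of 248 (247 ± 60.6, SD, n = 9). RT tumours held 939 to 1347 CPM with a median of 1121 (1135 ± 140, SD, n = 9). In BA+RT tumours the range was 308 to 654 CPM and the median 434 (443 ± 102, SD, n = 9). Every RT tumour thus lay above every tumour of the other groups. The order of the means was RT, BA+RT, control and BA. BA+RT and control overlapped, as did control and BA, and 7 of 9 BA+RT tumours lay above all BA tumours. The raw counts behind these levels were 108 to 544 in control, 50 to 209 in BA, 501 to 1135 in RT and 184 to 524 in BA+RT libraries.

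**Figure D1:**
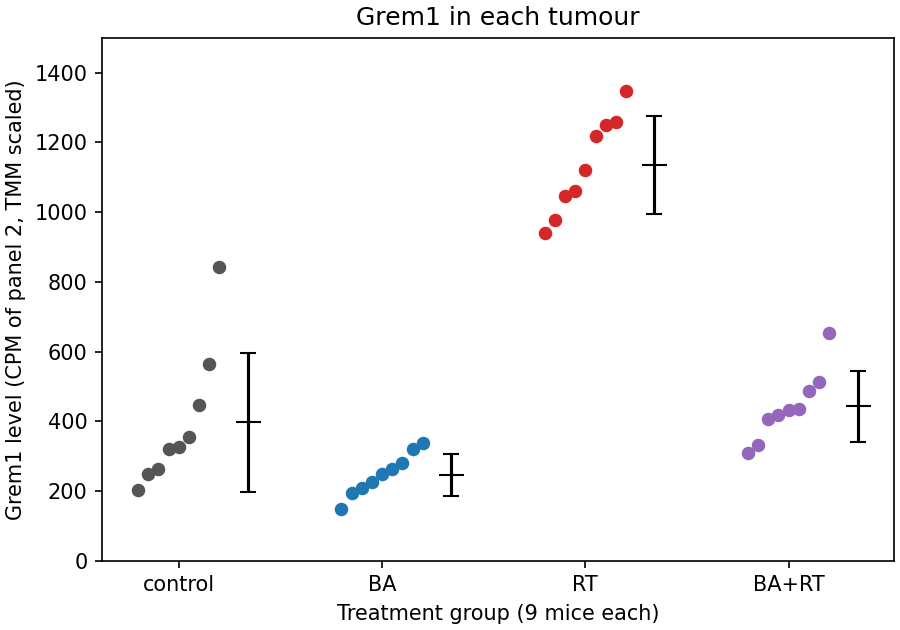
Grem1 level in each tumour, in CPM of panel 2 after TMM scaling, by treatment group. Each point is 1 mouse (9 per group, sorted by level within a group), and the dash with bars is the group mean ± SD. The RT points run from 939 to 1347 CPM and lie above all others, of which a control tumour at 843 CPM is the highest.

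Radiation without BA went with a Grem1 level 2.85-fold that of control tumours (log2 fold change 1.51, SE 0.19). All 9 RT tumours lay above all control tumours, and 18 of the 1037 other tested genes had a higher log2 fold change. With BA alone Grem1 was 1.59-fold lower than in control tumours (log2 fold change -0.67, SE 0.20). All 9 BA tumours lay below the control mean, of which 2 lay below every control tumour, and 54 other genes had a lower log2 fold change. Control mouse 9 carried part of that difference: without it the log2 fold change was -0.44. In irradiated tumours, BA went with a Grem1 level 2.56-fold lower (BA+RT against RT, log2 fold change -1.35, SE 0.18). All 9 BA+RT tumours lay below all RT tumours. Among the other genes 3 of 1037 had a lower log2 fold change in this comparison. BA+RT tumours stood 1.78-fold above BA tumours (log2 fold change 0.83, SE 0.20), all 9 above the BA mean, with 76 other genes higher.

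Against control, BA+RT tumours had a Grem1 log2 fold change of 0.16 with an SE of 0.19, smaller than that error. Its size moved with single mice of both groups: without control mouse 9 it was 0.37, without control mice 7, 1 or 8 it was 0.06, 0.09 and 0.10, and without BA+RT mouse 43 it was 0.07. The change that went with BA was -0.67 in unirradiated and -1.35 in irradiated tumours, a difference of -0.68 (SE 0.27). Without control mouse 9 that difference was -0.92. These comparisons share groups, so they are not independent of each other.

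Spread between mice also differed by group. The coefficient of variation of Grem1 was 50.4% in control, 24.5% in BA, 12.3% in RT and 23.1% in BA+RT tumours. On the log2 CPM scale the SD was 0.63, 0.37, 0.18 and 0.32 in the same order, so control tumours were the most variable and RT tumours the least. The biological coefficient of variation that edgeR fitted to Grem1 over all groups was 27.2%, against a median of 15.3% over the tested genes, and 20.6% of genes had a larger one. Group membership held 81.6% of the variance of its log2 CPM. The median gene had 37.1%, and 26 of 1038 genes had a larger share.

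The separation of RT tumours from all others was narrow in level but held in every mouse. The lowest RT tumour stood at 939 CPM and the highest of the other 27 at 843 CPM, a ratio of 1.11, or a gap of 0.15 in log2 CPM. Of the 1038 tested genes, 0.0963% had all 9 RT tumours above the other 27, and Grem1 was that 1 gene. No gene (0 of 1038) had all RT tumours below the rest. Ctsb, the lysosomal protease cathepsin B, came next with a gap of -0.08, and Cdc25a, a phosphatase of the cell cycle, followed with -0.11, both negative because their groups overlapped. Because Grem1 was selected on this pattern, its place carries no test. The count was again 1 gene with DESeq2 size factors, total counts, reference-gene factors or the deposited log2-scale values.

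**Figure D2:**
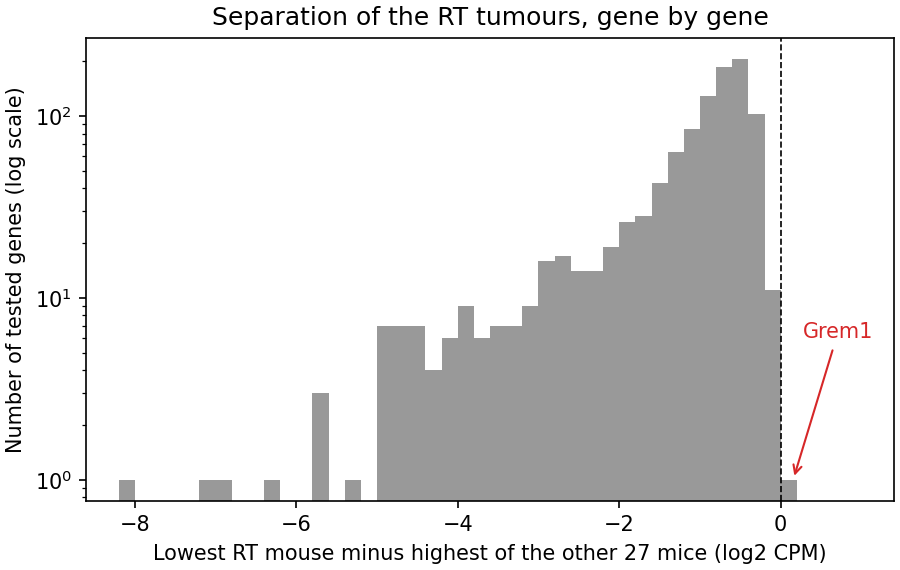
Number of tested genes (log scale) by the gap between the lowest RT tumour and the highest of the other 27 tumours, in log2 CPM, in bins of width 0.2. The dashed line marks 0, to the right of which all RT tumours lie above all others; Grem1 stands there alone at 0.15.

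The BMP genes measured beside Grem1 differed between groups by at most -0.88 to 0.45 in log2 fold change. From a list of 52 BMP genes other than Grem1, 15 were on the panels and 13 had enough counts to be tested: 1 ligand, 4 receptors, 5 Smads and 3 targets. The 12 other BMP antagonists listed, such as noggin and chordin, were not analysed here. A gene is said to rise or fall below where the adjusted p of edgeR's quasi-likelihood test was under 0.05. In RT against control tumours 3 of the 13 genes rose, 3 fell and 7 did not pass, with a median log2 fold change of -0.06, where 41.6% of all tested genes passed. BA against control gave 2 higher and 1 lower (median 0.13), where 27% of all genes passed. In BA+RT against control 1 rose and 1 fell (median 0.05), against 47.6% of all genes. Comparing BA+RT with RT, 3 rose and 1 fell (median 0.03), against 10.8% of all genes. In BA+RT against BA 0 rose and 3 fell (median -0.05), against 53.5% of all genes.

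These directions were measured relative to the bulk of each panel. As an alternative, each panel was scaled by its own marked reference genes, of which 9 were tested over both panels. In RT against control all 9 lay between -0.41 and -0.06 before this scaling. It shifted the median log2 change over all genes to 0.19 in RT against control, 0.14 in BA+RT against control and 0.20 in BA+RT against BA. Splits of the BMP calls then became 7 higher and 1 lower (RT against control), 1 and 2 (BA against control), 3 and 1 (BA+RT against control), 1 and 3 (BA+RT against RT) and 4 and 0 (BA+RT against BA). All shares of genes that passed, above and below, are of the TMM fit. Shares with other scalings are not given, so splits under those scalings cannot be set against all genes. With total counts as the scale, BA+RT against control had 2 higher and 1 lower, and BA+RT against BA had 1 higher and 2 lower. Grem1 kept its directions under reference-gene scaling, with log2 fold changes of 1.68, -0.77, 0.21, -1.46 and 0.98 in the same order.

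Bmp7 was the 1 BMP ligand analysed here. Its level was 233 ± 45.2 CPM in control, 283 ± 51.7 in BA, 219 ± 57.2 in RT and 250 ± 66.3 in BA+RT tumours (SD, n = 9), all overlapping. Its log2 fold changes lay between -0.18 and 0.28 and passed in none of the 5 comparisons. Of the receptors, Acvr1, a type I receptor for BMPs and activins, lay between -0.05 and 0.10 and passed in none, although with reference-gene scaling it passed in RT against control (0.22, adjusted p = 0.000182), BA against control (-0.16, adjusted p = 0.00944) and BA+RT against BA (0.26, adjusted p = 2.19e-05). In the last of these it also passed with total counts (0.14, adjusted p = 0.0148). Acvrl1, the type I receptor of endothelial cells also called ALK1, rose with RT (0.37, SE 0.10, adjusted p = 0.00256). It was also higher in BA+RT than in control tumours (0.23, adjusted p = 0.0494), a call lost without the low-count filter (adjusted p = 0.0654), and passed in BA+RT against BA with reference-gene scaling alone (0.26, adjusted p = 0.0395). Acvr2b, a type II receptor for activins and BMPs, fell with RT (-0.44, SE 0.11, adjusted p = 0.00205) and was lower in BA+RT than in BA tumours (-0.37, adjusted p = 0.0063). The second of these did not pass with reference-gene scaling (-0.18, adjusted p = 0.0836). Acvr2b stood at 0.31 in BA+RT against RT and did not pass (adjusted p = 0.0677), but it did with each of DESeq2 size factors, total counts, reference-gene scaling and DESeq2's Wald test (adjusted p = 0.0302 to 0.0458).

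Eng, endoglin, a co-receptor for BMP and TGF-β ligands on endothelial cells, moved in the same directions as Grem1 in both RT comparisons. It ranged from 1512 to 2445 CPM with a median of 1995 in control tumours, and from 1966 to 2755 with a median of 2315 in RT tumours. With BA+RT the range was 1554 to 2398 CPM and the median 1916, and these groups overlapped. Eng rose with RT by 0.27 in log2 (SE 0.08, adjusted p = 0.00685). In BA+RT it was lower than in RT tumours (-0.30, SE 0.08, adjusted p = 0.014). With reference-gene scaling it also passed in BA+RT against BA (0.23, adjusted p = 0.0134).

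Of the Smads that carry the BMP signal, Smad1 rose with RT by 0.16 (adjusted p = 0.0416). That call was lost without the low-count filter (adjusted p = 0.0566), and reference-gene scaling added one in BA+RT against RT (-0.19, adjusted p = 0.0265). Smad5 fell with RT (-0.16, adjusted p = 0.00141) and was higher in BA+RT than in RT tumours (0.16, adjusted p = 0.00718). Neither Smad5 call held with reference-gene scaling, where the adjusted p was 0.996 and 0.529. DESeq2's Wald test added a call in BA+RT against BA (-0.09, adjusted p = 0.0362). Smad4, the partner shared with the TGF-β branch, was lower in BA+RT than in BA tumours (-0.12, adjusted p = 0.0307), but stood at -0.08 (adjusted p = 0.0785) with total counts and at 0.04 (adjusted p = 0.468) with reference-gene scaling. In RT against control Smad4 was at -0.06 (adjusted p = 0.309) and turned to 0.10 with that scaling (adjusted p = 0.0441). The inhibitory Smad6 was higher in BA+RT than in RT tumours (0.45, SE 0.14, adjusted p = 0.038; 0.33 with reference-gene scaling, adjusted p = 0.111). Smad7, which inhibits both branches, lay between -0.03 and 0.08 and passed in none of the 5. With reference-gene scaling its value in RT against control turned from -0.03 to 0.13 (adjusted p = 0.0481), and it passed in BA+RT against BA (0.20, adjusted p = 0.0029).

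Among the targets, Hey1, a transcriptional repressor driven by Notch and by BMP9 and BMP10 signals, was lower than control in every treated group. It ranged from 197 to 424 CPM with a median of 248 in control tumours and from 135 to 279 with a median of 214 in RT tumours. In BA tumours it ranged from 99.3 to 231 CPM (median 173), and in BA+RT tumours from 95.2 to 194 (median 135). The BA+RT tumours did not overlap the controls, while RT and BA tumours did. Its log2 fold changes against control were -0.41 with RT (adjusted p = 0.0413), -0.72 with BA (adjusted p = 0.00153) and -0.88 with BA+RT (adjusted p = 4.06e-05). The call with RT did not hold with reference-gene scaling (-0.24, adjusted p = 0.255). Hey1 stood at -0.47 in BA+RT against RT (adjusted p = 0.0554) and passed with reference-gene scaling (-0.59, adjusted p = 0.0265) and with DESeq2's Wald test (adjusted p = 0.0398).

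Id2, a helix-loop-helix inhibitor and BMP target, moved opposite to Grem1 in BA, in BA+RT against RT and in BA+RT against BA. Its median was 2703 CPM in control (2437 to 3603), 3778 in BA (3009 to 4364), 2651 in RT (1887 to 3220) and 3075 in BA+RT tumours (2751 to 3642). The BA tumours were the highest as a group, and all groups overlapped with control. Id2 rose with BA (0.44, SE 0.08, adjusted p = 0.00013), was higher in BA+RT than in RT (0.28, adjusted p = 0.0228) and lower in BA+RT than in BA (-0.27, adjusted p = 0.00568). The last 2 calls did not hold with reference-gene scaling (adjusted p = 0.175 and 0.227), which added one in BA+RT against control (0.21, adjusted p = 0.0305). Id1, the other Id gene tested, rose with BA by 0.25 (adjusted p = 0.045), a call lost with reference-gene scaling (adjusted p = 0.305) and without the low-count filter (adjusted p = 0.0556). With RT against control Id1 stood at 0.22 (adjusted p = 0.058) and passed with total counts (0.23, adjusted p = 0.0424), reference-gene scaling (0.37, adjusted p = 0.00275) and DESeq2's Wald test (0.22, adjusted p = 0.0475). It stood at 0.20 (adjusted p = 0.0726) in BA+RT against control and passed with total counts (adjusted p = 0.0303) and reference-gene scaling (adjusted p = 0.0381). Id3 had 0 to 7 counts per library and Msx2 had 0 in all 36, which allows up to 3.57 to 9.54 CPM in a library at 3 counts, so neither was tested.

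**Figure D3:**
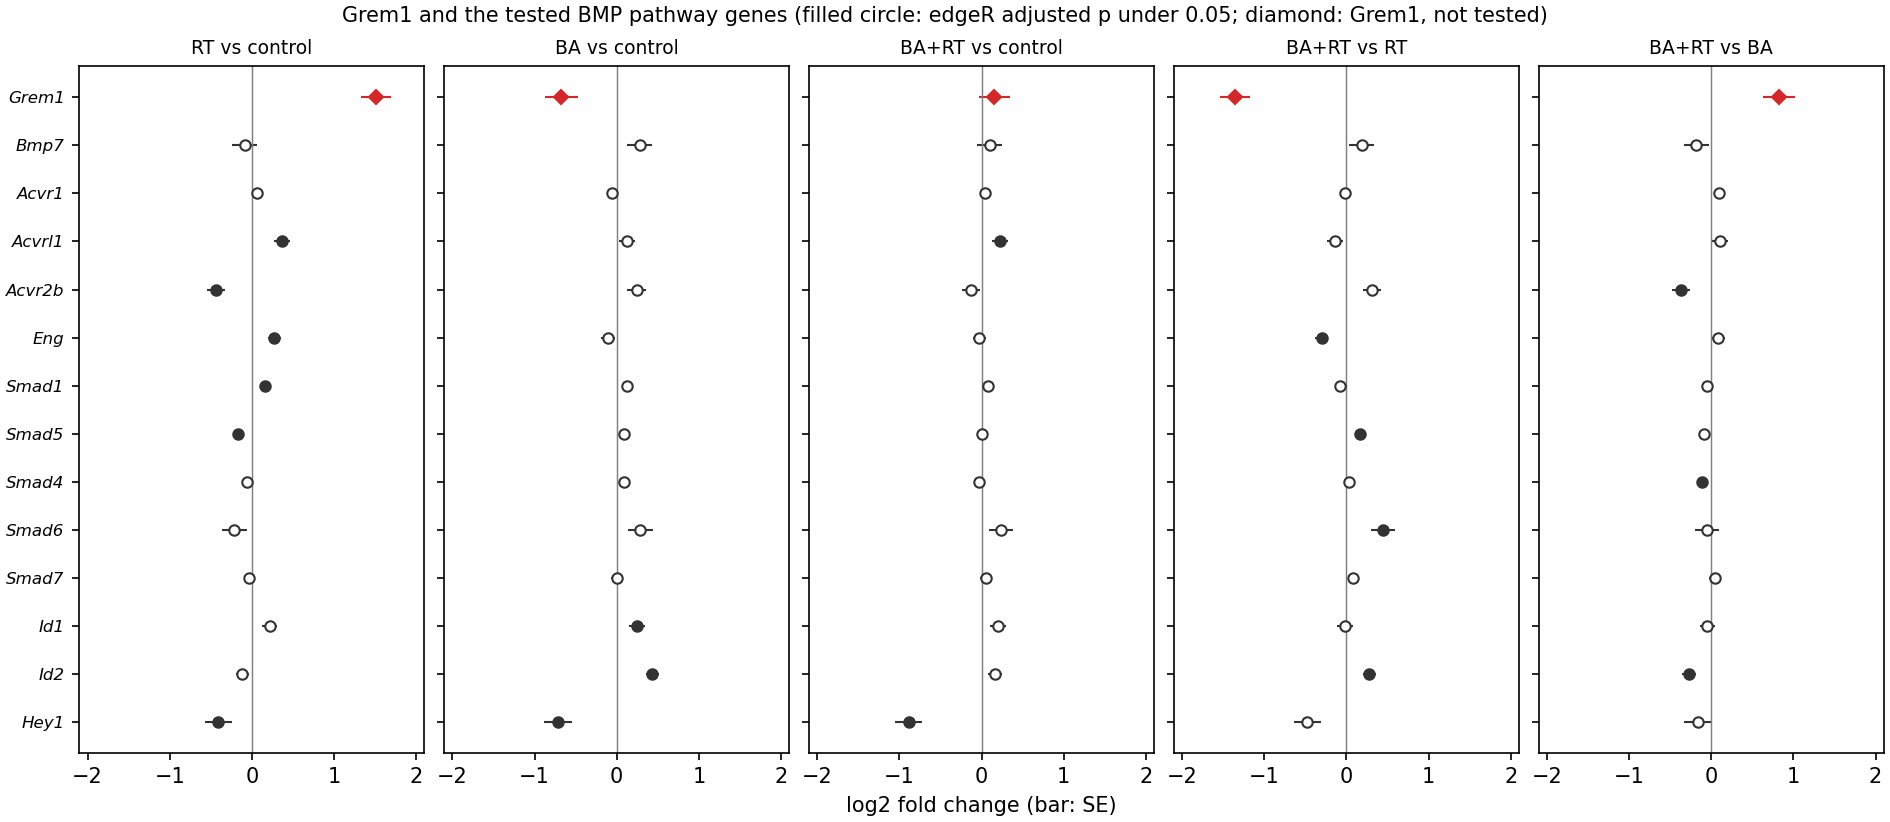
Log2 fold changes with their SE for Grem1 (red diamonds, not tested) and the 13 tested BMP genes (circles, filled where edgeR's adjusted p was under 0.05) in 5 comparisons of 9 mice with 9. Grem1 lies at 1.51 in RT against control and -1.35 in BA+RT against RT, while the BMP genes stay within -0.88 and 0.45.

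TGF-β is the ligand that bintrafusp alfa binds, and 17 of the 18 measured genes of a TGF-β list of 25 were tested. In RT against control 2 rose, 3 fell and 12 did not pass (median log2 fold change -0.03), where 41.6% of all tested genes passed. The split became 5 and 0 with reference-gene scaling. Ctgf, a matricellular target gene, rose by 0.40 (adjusted p = 0.0144) and the type II receptor Tgfbr2 by 0.19 (adjusted p = 0.0043). Inhba, a subunit of activin A, stood at -0.31 (adjusted p = 0.0083; -0.12 with reference-gene scaling, adjusted p = 0.259) and the signal carrier Smad2 at -0.19 (adjusted p = 0.000404; -0.02 with reference-gene scaling, adjusted p = 0.646). With BA against control 5 rose and 7 fell (median -0.01), where 27% of all genes passed with TMM scaling (split 1 and 7 with reference-gene scaling). The ligand Tgfb2 fell (-1.15, SE 0.17, adjusted p = 4.16e-06), as did Itgb6, part of an integrin that activates latent TGF-β (-1.08, adjusted p = 0.00267). Itgb8, part of another activating integrin, rose by 0.55 (adjusted p = 0.0201), a call lost with reference-gene scaling (0.44, adjusted p = 0.0555).

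In BA+RT against RT, where Grem1 stood at -1.35, 0 of the 17 TGF-β genes rose, 4 fell and 13 did not pass (median 0.00), against 10.8% of all genes that passed. With reference-gene scaling the split was 1 and 5, with DESeq2 size factors 1 and 4, and with total counts 2 and 4. Ctgf ranged from 16817 to 31339 CPM with a median of 27952 in RT tumours, and from 11558 to 22207 with a median of 16939 in BA+RT tumours. Most BA+RT tumours lay lower, with overlap between the groups. Its log2 fold change was -0.60 (SE 0.13, adjusted p = 0.00342). Tgfb2 fell by 0.51 (adjusted p = 0.0354), the TGF-β activator Thbs1 stood at -0.50 (adjusted p = 0.0035) and Inhba at -0.29 (adjusted p = 0.0375). BA+RT against control gave 2 higher and 5 lower (median -0.12), against 47.6% of all genes with TMM scaling (split 4 and 4 with reference-gene scaling). Inhba (-0.60) and Tgfb2 (-0.48) were lower there, and the latency protein Ltbp1 (0.37) and Tgfbr2 (0.33) were higher. BA+RT against BA gave 4 higher and 6 lower (median 0.05), against 53.5% of all genes with TMM scaling. The split was 10 and 3 with reference-gene scaling, for which the share of all genes is not given. With TMM scaling Itgb6 (1.19) and Tgfb2 (0.66) were higher there, and Itgb8 (-0.59) and Inhba (-0.35) lower, the last not with reference-gene scaling (-0.16, adjusted p = 0.106).

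More stromal genes fell than rose with BA, and with RT, where Grem1 was highest, they moved in both directions. The list joined fibroblast and pericyte markers with matrix and matrix assembly genes, and the 18 measured of 34 were all tested. In BA against control 2 rose, 10 fell and 6 did not pass, with a median log2 fold change of -0.52, where 27% of all tested genes passed. Cspg4, the pericyte proteoglycan NG2, ranged from 139 to 273 CPM (median 179) in control and from 32 to 70.1 CPM (median 57.0) in BA tumours. In RT tumours Cspg4 ranged from 76.0 to 215 CPM (median 161), and in BA+RT tumours from 30.1 to 104 (median 56.5). Both BA-treated groups lay below all controls. It fell with BA (-1.72, SE 0.21, adjusted p = 2.91e-07), as did the smooth muscle actin Acta2 (-1.08, adjusted p = 7.01e-05), the metalloproteinase inhibitor Timp1 (-0.92, adjusted p = 1.16e-05) and the fibroblast protease Fap (-0.85, adjusted p = 3.76e-06).

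With RT against control 4 of the 18 stromal genes rose, 5 fell and 9 did not pass (median -0.12), where 41.6% of all genes passed. Reference-gene scaling gave 4 higher and 1 lower. Timp1 had a median of 7202 CPM in control (5425 to 10986) and 10988 CPM in RT tumours (8546 to 14007), with overlap. It rose by 0.60 (SE 0.14, adjusted p = 0.00101), the gelatinase Mmp2 by 0.53 (adjusted p = 0.0205) and the matrix-bound inhibitor Timp3 by 0.50 (adjusted p = 0.0447). Pdgfrb, a growth factor receptor of pericytes and fibroblasts, fell (-0.63, SE 0.11, adjusted p = 9.07e-06).

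In BA+RT against RT 0 stromal genes rose, 6 fell and 12 did not pass (median -0.32), against 10.8% of all genes. Cspg4 stood at -1.28 (SE 0.20, adjusted p = 4.18e-05), close in size to Grem1. Timp3 (-0.70, adjusted p = 0.0195), Thbs2, a matricellular protein (-0.61, adjusted p = 0.0016), and Timp1 (-0.59, adjusted p = 0.00646) were lower too. BA+RT against control gave 0 higher and 9 lower (median -0.19), against 47.6% of all genes with TMM scaling (split 1 and 8 with reference-gene scaling). The lower ones of largest change were Cspg4 (-1.57), Pdgfrb (-0.94), Fap (-0.93) and the protease Mmp3 (-0.68). BA+RT against BA gave 6 higher and 3 lower (median 0.10), against 53.5% of all genes with TMM scaling. The split was 8 and 1 with reference-gene scaling, for which the share of all genes is not given. Timp1 (0.93), the collagen cross-linking enzyme Lox (0.58), Timp3 (0.58) and Mmp2 (0.56) were the higher ones of largest change.

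**Figure D4:**
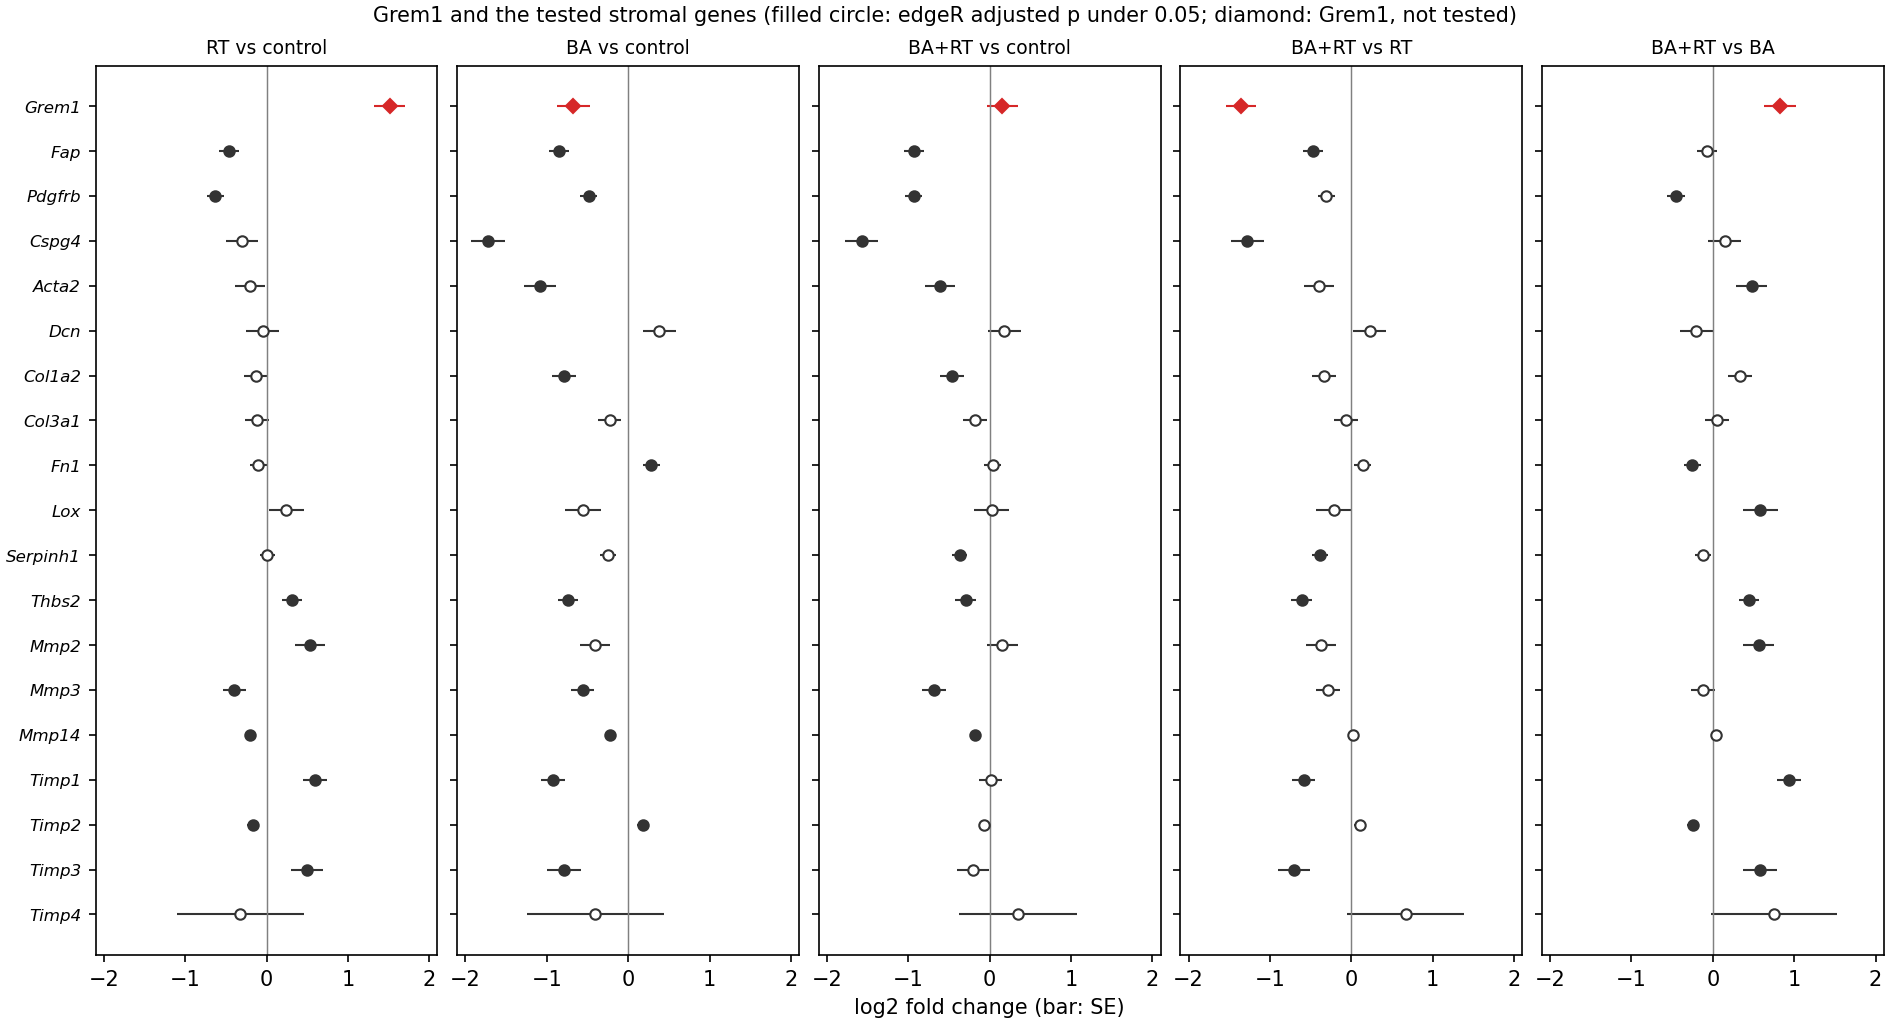
Log2 fold changes with their SE for Grem1 (red diamonds, not tested) and the 18 stromal genes (circles, filled where edgeR's adjusted p was under 0.05) in 5 comparisons of 9 mice with 9. With BA most stromal genes lie left of 0, and with RT they lie on both sides while Grem1 lies at 1.51.

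The interaction tested, for the genes of the lists, if BA went with another change after radiation than without it. By edgeR 0 of 13 BMP, 0 of 17 TGF-β and 0 of 18 stromal genes passed, where 8.29% of all tested genes did. At an unadjusted p under 0.05 there were 1, 3 and 4 genes, and DESeq2's Wald test called 0, 0 and 1. That 1 gene was Mmp14, a membrane-bound matrix protease, named here after its value was seen. It was also called with total counts and with reference-gene scaling.

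Between mice of the same group, the stromal genes correlated with Grem1 in both directions. Likeness was the Pearson correlation of log2 CPM after removing each group's mean, over all 36 mice. Over the 18 stromal genes its median was -0.01, with 8 of 18 above 0. Over all 1037 other tested genes the median was also -0.01, with 5% of genes below -0.27 and 5% above 0.29. These values depended on the scaling. With reference-gene scaling the stromal median was 0.11 with 14 of 18 above 0, and the median of all genes was 0.06 with 61.6% above 0. With total counts the medians were 0.00 and 0.04, and with the deposited log2 values -0.02 and -0.01. Acta2 had the highest r of the stromal genes (0.38, Spearman 0.43), ranked 25 of 1037, and Thbs2 followed with 0.30 (Spearman 0.28). With reference-gene scaling these were 0.47 and 0.40. Cspg4 had 0.21, Timp1 0.18 and Pdgfrb 0.17. At the other end stood the matrix proteoglycan Dcn with -0.23 and Fap with -0.18. Genes of panel 2 share the library with Grem1, and all values share the tumour RNA.

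With TMM scaling, the median r of the stromal genes did not have the same sign in every group. Within the 9 control tumours the median r of the stromal genes with Grem1 was 0.17 and 13 of 18 were above 0. Within BA tumours it was 0.11 with 10 above 0, and within BA+RT tumours 0.19 with 12 above 0. Within RT tumours it was -0.45 with 3 above 0. Over all genes the median within each of these groups lay between -0.02 and 0.00, with 47.2% to 49.9% of genes above 0. Acta2, for example, had r of 0.51 in control, 0.50 in BA, 0.57 in BA+RT and -0.39 in RT tumours. Timp1 stood at 0.15, 0.32, 0.48 and -0.75 in the same order. Other genes differed from this pattern: Dcn was below 0 in all 4 groups, and Timp2 stood at 0.33 in RT and -0.56 in BA+RT tumours. The 18 genes were read in the same 9 mice of a group, so they are not independent of each other. Each such r rests on 9 mice, RT tumours had the smallest spread of Grem1, and the difference between groups was not tested.

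**Figure D5:**
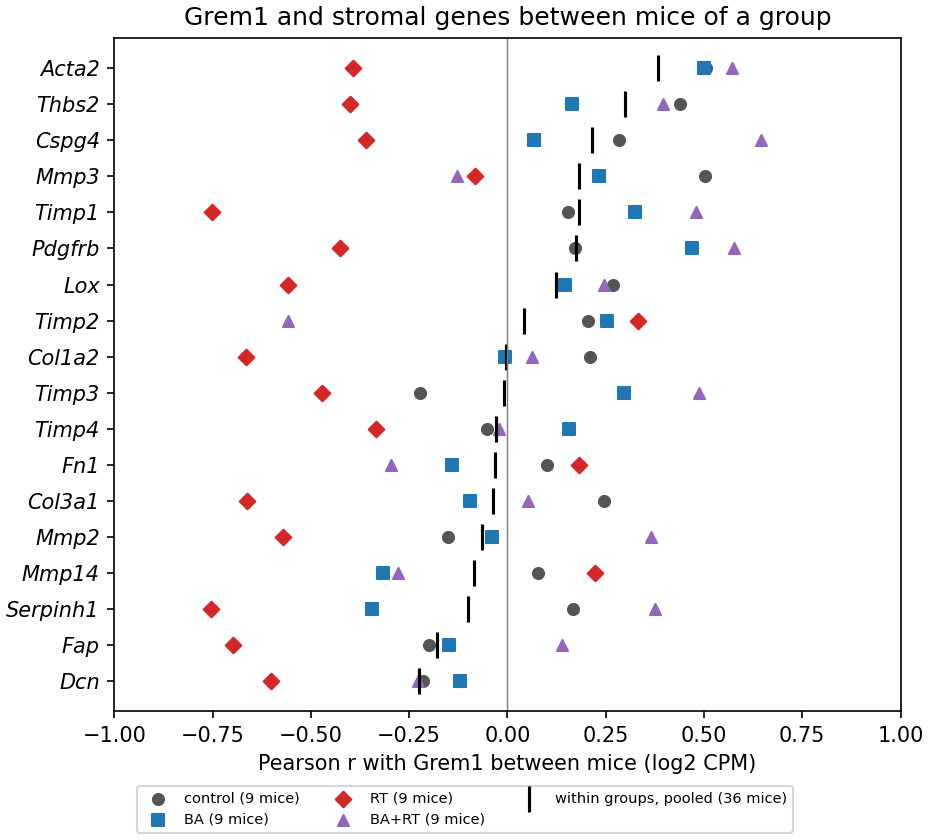
Pearson r between mice of Grem1 with each of 18 stromal genes, on log2 CPM, within each group of 9 mice (symbols) and pooled over 36 mice after removing group means (black bars). The RT diamonds lie left of 0 for 15 of the genes, and the pooled values run from -0.23 for Dcn to 0.38 for Acta2.

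The genes most like Grem1 between mice were not on the stromal list. The 10 highest were Ncald (r 0.58, Spearman 0.48), a neuronal calcium sensor, Wnt5a (0.54, 0.44), a secreted Wnt ligand, Aqp3 (0.52, 0.50), a water and glycerol channel, Chst2 (0.51, 0.39), a sulfotransferase, Prep (0.47, 0.45), a prolyl peptidase, Capzb (0.47, 0.39), an actin-capping subunit, Lta (0.47, 0.43), a TNF family ligand, Ctsw (0.46, 0.38), a protease of cytotoxic lymphocytes, Cd44 (0.45, 0.34), the hyaluronan receptor, and Adcy1 (0.45, 0.47), an adenylate cyclase. Of these, Aqp3 and Prep had a positive r in each of the 4 groups. All 10 were measured on panel 1, in a separate library of the same tumour. Panel 1 held most of the genes, with 992 gene rows against 286 on panel 2. The 5 lowest were the proteasome subunit Psmb4 (-0.48, Spearman -0.48), the macrophage scavenger receptor Msr1 (-0.47, -0.40), the interferon-induced Oas2 (-0.46, -0.40), the membrane protein Ms4a6d (-0.45, -0.49) and the splicing factor Srsf7 (-0.44, -0.33). With reference-gene scaling Psmb4 was at -0.21, Ms4a6d at -0.25 and Msr1 at -0.34, while Oas2 was at -0.42 and Srsf7 at -0.45, so the order among them changed.

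Some of these values leaned on a pair of control tumours. The mice farthest from their group mean were control mouse 9, at 1.21 above it in log2 CPM, and control mouse 7, at -0.83. Without them r was 0.51 for Ncald, 0.38 for Wnt5a, 0.53 for Aqp3, 0.51 for Prep and 0.32 for Capzb, and -0.42 for Psmb4 and -0.28 for Oas2. Depth moved with Grem1 as well: its log2 CPM correlated with the log2 total of the panel 2 library at r 0.26 within groups (-0.03 in control, 0.55 in BA, 0.54 in RT and 0.58 in BA+RT tumours, 9 mice each). The part of depth in these likenesses was not tested.

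Over the group means, the genes nearest to Grem1 were found by the root mean square difference of their 3 log2 fold changes against control. The smallest were Ppbp (0.35), a platelet chemokine, Foxj1 (0.36), a transcription factor of ciliated cells, Pf4 (0.41), another platelet chemokine, Kcnj15 (0.42), a potassium channel, and Cxcl5 (0.46), a chemokine for neutrophils. The median over all genes was 0.99. Foxj1 ranged from 42.2 to 74.6 CPM (median 52.3) in control, 27.1 to 50.5 (median 35.9) in BA, 92.4 to 168 (median 125) in RT and 53.8 to 132 (median 88.0) in BA+RT tumours. Its RT tumours lay above all control and BA tumours but overlapped those of BA+RT. In log2 fold change against control Foxj1 stood at 1.18 with RT, -0.56 with BA and 0.67 with BA+RT, and at -0.51 in BA+RT against RT. Pf4 stood at 1.25, -0.36, 0.73 and -0.52 in the same order, and Ppbp at 1.08, -0.71, 0.58 and -0.50. In BA+RT against RT all 5 lay between -0.53 and -0.29, a smaller difference than that of Grem1. As these genes were picked for their likeness, none is tested here.

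Markers of the cells that the tumours could hold also moved between groups. Of 14 fibroblast and pericyte markers 5 were measured (Fap, Pdgfrb, Acta2, Dcn and Cspg4), none at 0 throughout. Their summed CPM was 3926 to 8769 in control, 4669 to 7047 in BA, 2668 to 7697 in RT and 3502 to 7948 in BA+RT. Dcn made up 65.7% of that sum in control, 81.7% in BA, 71.0% in RT and 79.7% in BA+RT tumours. Dcn and Acta2 were on panel 2, and Fap, Pdgfrb and Cspg4 on panel 1. CPM is relative to the counts of a gene's own panel, so the sum and the Dcn share mix 2 scales. Panel 2 had smaller totals, so 1 count there gives more CPM. With RT against control 0 of the 5 rose and 2 fell, where 41.6% of all tested genes passed, and the fall of Fap did not hold with reference-gene scaling (-0.25, adjusted p = 0.13). In BA against control 0 rose and 4 fell (27% of all genes passed), in BA+RT against control 0 rose and 4 fell (47.6%), and in BA+RT against RT 0 rose and 2 fell (10.8%). Of 8 epithelial markers, which the carcinoma cells should carry, Epcam and Muc1 were measured, with sums of 9414 to 14493 CPM in control, 7821 to 10717 in BA, 5599 to 9441 in RT and 4390 to 8636 in BA+RT tumours. Nearly all of each sum was Epcam, with a mean of 11434 CPM in control and 6542 in RT tumours. Muc1 had means of 43.9 and 218 CPM. With RT against control Epcam fell by 0.81 (adjusted p = 2.95e-07) and Muc1 rose by 2.32 (adjusted p = 3.41e-10). The muscle genes Mb and Myod1, 2 of 10 listed, were present in all groups, at summed levels of 256 to 4947 CPM in control, 347 to 3736 in BA, 365 to 2393 in RT and 500 to 5680 in BA+RT tumours. Mb was on panel 1 and Myod1 on panel 2, so these sums mix the scales of both panels. Myod1 was higher in BA+RT than in control (1.58, adjusted p = 0.0108) and than in BA tumours (1.32, adjusted p = 0.0294), and Mb passed in none of the 5 comparisons. Macrophage markers (4 of 5 measured) gave 3 higher and 1 lower with RT against control (41.6% of all genes passed) and 0 higher and 2 lower in BA+RT against RT (10.8%). Their sums were 2660 to 3709, 3244 to 4102, 2855 to 4086 and 2912 to 3799 CPM in control, BA, RT and BA+RT tumours. The endothelial receptor Kdr, 1 of 7 endothelial markers, had 159 to 280, 122 to 217, 153 to 248 and 109 to 192 CPM in the same order. Kdr fell in BA against control (-0.39, adjusted p = 0.0148) and BA+RT against control (-0.70, adjusted p = 1.25e-05). It also fell in BA+RT against RT (-0.47, adjusted p = 0.00865) and BA+RT against BA (-0.32, adjusted p = 0.0266). In RT against control it did not pass (-0.23, adjusted p = 0.121). Neutrophil markers (3 of 5 measured) gave 0 calls with RT or BA against control and in BA+RT against RT, while 3 of 3 were lower in BA+RT against control (47.6% of all genes passed) and 1 in BA+RT against BA. Their summed CPM ran from 1499 to 4570 in control, 1298 to 6028 in BA, 1143 to 4927 in RT and 903 to 3339 in BA+RT tumours. S100a8 was on panel 2 and Csf3r and Cxcr2 on panel 1, so these sums mix scales too. T cell markers (5 of 5 measured) gave 0 calls with RT against control, 1 higher with BA, 1 lower in BA+RT against control and 4 of 5 lower in BA+RT against BA (53.5% of all genes passed). With RT against control all 5 log2 fold changes lay below 0 (median -1.04), and DESeq2's Wald test called 2. Their counts were low, at 1 to 57 per library for Cd3d and 0 to 27 for Cd8a. The call with BA was Cd3g (1.58, adjusted p = 0.00729), with 5 to 57 counts in control and 29 to 127 in BA libraries. Sums of the T cell markers ran from 21.7 to 123 in control, 49.9 to 231 in BA, 7.74 to 104 in RT and 17.6 to 86.4 in BA+RT tumours. None of the B cell markers (3 of 4 measured) passed the low-count filter. The part of any of these cells in the Grem1 differences was not tested.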

How the data were processed

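RNA of 36 tumours was read with 2 targeted amplicon panels, giving 72 libraries. The authors deposited raw whole-number counts for each amplicon, per the file headers, with Grem1 on panel 2 only. The sources used do not give the aligner or say if reads or molecular barcodes were counted. The deposited log2-scale table holds regularized log values of DESeq2, a tool in the submitters' processing notes. It served as 1 alternative. Position columns are headed GRCh38 and the notes list both GRCm38 and GRCh38, but the Grem1 position, read as counted from 1, lies in the mouse gene on GRCm38 (GENCODE M21).

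Totals were 959532 to 2616197 counts per library on panel 1 and 314621 to 841046 on panel 2, and both irradiated groups had higher mean totals than the others. Each panel's 5 genomic DNA control rows, with 19 counts over all libraries, were left out. No column of another sample was present (0), and the labels name no batch.

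Each panel was fitted alone over all 4 groups with edgeR 4.0.16 (R 4.3.3): TMM factors, filterByExpr by group, and a two-sided quasi-likelihood F test with robust estimation. P-values were adjusted by Benjamini and Hochberg over the 1038 genes tested of 1224, and a gene was called under 0.05. A gene on both panels was taken from the panel with its larger total. The SE was taken as the size of the log2 fold change over the root of F. Log2 CPM used a prior count of 2. The steps were tested on simulated data.

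Grem1 and the lists were chosen with earlier results of these data known. All tested BMP genes were named, and for the TGF-β and stromal lists the up to 4 called genes of largest change per comparison. Some items that this rule names, and the sequence of the amplicon, are not reported here. The 10 highest and 5 lowest likenesses and the 5 nearest group patterns were also named, as were list genes where stated. Levels of Kdr, Epcam and Muc1 were named among the markers. Alternatives were DESeq2 1.42.0 (size factors, and its Wald test for the lists), total counts, reference-gene factors, no low-count filter, the deposited log2 values, Spearman correlation and each mouse left out.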

Additional observations from a re-analysis of the deposited data

Results flagged for a closer look

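Single tumours that stood apart from their group were looked for in Grem1 and the tested BMP genes, in 56 groups of 9 tumours. A tumour was singled out where its gap to the nearest other was, relative to the group's whole range in log2 CPM, above Dixon's critical value, which chance gives in about 1 in 20 groups, and 5 were found. None was a Grem1 value. Acvr1, the type I receptor, was high in RT mouse 25 at 11.33 log2 CPM (2579 CPM, the next at 2315). Acvrl1 was low in BA mouse 15 at 8.45 log2 CPM (346 CPM, the next at 441). BA+RT mouse 37 was high in both Acvr2b, at 7.78 log2 CPM (219 CPM, the next at 174), and Smad7, at 11.25 log2 CPM (2429 CPM, the next at 2031). Id2 was low in BA mouse 13 at 11.56 log2 CPM (3009 CPM, the next at 3631).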

How the results depend on the processing

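The deposited log2 values gave Grem1 differences of 0.90 for RT against control, -0.78 for BA+RT against RT, 0.38 for BA+RT against BA and -0.26 for BA against control, smaller than the fitted 1.51, -1.35, 0.83 and -0.67; the regularized log shrinks differences by construction. Of all 246 settings for the Grem1 fold changes 243 kept direction and stayed within 1 SD between mice, the last of those values by a narrow margin. Many of the 246 left out a mouse of neither compared group, where the value could barely move. The count is therefore no measure of how firm the differences are. With each mouse left out the log2 fold change ranged from 1.42 to 1.73 (RT against control), -0.76 to -0.44 (BA against control), 0.06 to 0.37 (BA+RT against control), -1.44 to -1.30 (BA+RT against RT), 0.74 to 0.89 (BA+RT against BA) and -0.92 to -0.59 (interaction). Calls in the BMP list for BA+RT against control numbered 2, but 4 with reference-gene scaling and 1 without the low-count filter. Stromal calls in RT against control fell from 9 to 5 with reference-gene scaling, and the interaction gave 1 stromal call in place of 0 with total counts, reference-gene scaling and DESeq2's Wald test. Reference-gene scaling reversed Smad4 in RT against control (0.10) and in BA+RT against BA (0.036), and Smad7 in RT against control (0.13). This scaling applies the same factor of a library to every gene of a panel. In RT against control it also moved Acvr1 from 0.06 to 0.22 and Grem1 from 1.51 to 1.68. Why the reference genes differed from the bulk of the panels was not tested. Of the other values of single named genes, 891 kept direction and side of the threshold, 33 newly passed and 23 no longer did. These counts hold the named list genes and also the 5 genes nearest to Grem1 in group pattern, whose passing is no test of them. The likeness values moved by more than their error in 5 of 80 settings (Wnt5a, Capzb and Oas2 without the 2 farthest mice, Psmb4 and Ms4a6d with reference-gene scaling). The interaction counts for the gene lists were added after seeing the data, as were the other scalings of the separation of RT tumours. No paired analysis was possible because the groups share no mouse numbers. Grem1 rests on 1 amplicon and on 50 to 1135 counts per library, which limits precision in BA tumours most.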
